A study of Mus musculus with 12 samples.

Results

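The 34 genes described here encode the enzymes and transporters of glycolysis and the pentose phosphate pathway, with the transcription factor subunit Hif1a and the kinases of pyruvate dehydrogenase. They were taken by symbol from the 16920 genes of the count tables. All 34 were found, and all 34 were among the 12064 genes that passed the filter on low counts. To study how the reader of N6-methyladenosine (m6A) Ythdf1 bears on the macrophage response to lipopolysaccharide (LPS), mRNA had been sequenced from mouse peritoneal macrophages in 12 libraries, 3 in each of 4 groups. The groups were WT cells with PBS for 6 h, WT cells with LPS at 1 µg/mL for 6 h, cells labelled Ythdf1-/- (KO) with PBS, and KO-labelled cells with LPS. Both kinds of mice were on the C57BL/6 background, and the methods give 6 to 10 weeks as the age of mice in the study. Ythdf1 deletion was in the whole animal, not restricted to macrophages. The cells were drawn into the peritoneum by starch broth according to the series record, by thioglycollate according to the methods, and were cultured overnight before stimulation. The replicates were described as independent biological replicates, with no statement of whether each came from a separate mouse, so p-values measure only the spread between these libraries.

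Glycolysis turns glucose into pyruvate in the cytosol, and the pentose phosphate pathway branches from it to make NADPH and ribose phosphate. Macrophages activated by LPS are known for fast glucose use and for lactate release, and HIF-1, of which Hif1a encodes the regulated subunit, is known to switch on many genes of the pathway. Several steps are served by more than 1 gene (paralogs), whose products differ in tissue, regulation and affinity.

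Total counts lay between 21546274 and 22017005 per library. Levels are given as CPM (counts normalised to library size after TMM scaling, by a trimmed mean of log ratios), or as RPKM (the same divided by exon length) where different genes are compared. Macrophage markers summed to 17170 to 19942 CPM in every library, most of it Lyz2, and all 8 were detected. Ythdf1 mRNA itself was not lost in the KO-labelled libraries, with means of 43.5 CPM in WT PBS, 57.2 CPM in KO PBS, and of 202 and 198 CPM after LPS in WT and KO, so the genotype rests on the labels. WT LPS replicate 1 stood apart from replicates 2 and 3, by a chi-square of 30.5 and 23.7 per gene, averaged over genes, against 2.95 between the other two, and KO LPS replicates 2 and 3 differed by 15.3. Summed markers of skeletal muscle lay between 20.5 and 27.1 CPM in WT PBS and 34.1 and 40.6 CPM in WT LPS. In KO they lay between 0.354 and 23.7 CPM with PBS and between 0.612 and 0.798 CPM with LPS, where 4 of the 8 markers were at 0. Fibroblast markers summed to 66.4 to 80.1, 107.6 to 119.3, 29.3 to 40.8 and 49.8 to 62.2 CPM in the same order. Counts were whole in every library for 20 of the 34 genes. The other 14 had decimals in 3 or more libraries, as estimated counts do where reads match several features, so their values are less certain (Gpi1, Pfkl, Pfkm, Pfkp, Pfkfb3, Pfkfb4, Aldoa, Gapdh, Eno1, Eno2, Ldha, Slc16a3, Pdk1 and G6pdx). In such bulk samples, fewer cells of a type and less RNA per cell cannot be told apart.

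To investigate what LPS did to the pathway, PBS and LPS libraries were compared within each label. In WT macrophages the transporter Slc2a6 rose 21.4-fold, Pfkfb3 12.4-fold, Pfkp 4.47-fold and the hexokinase Hk2 3.82-fold. Among the enzymes from Aldoa to Pkm, Tpi1, Pgam1 and Eno2 fell with TMM and all libraries, Aldoa, Aldoc, Eno1 and Pkm passed as lower too without WT LPS replicate 1, and Pgk1 rose, though it was lower with totals alone. At 5 of the 9 steps with paralogs, the mean share of a single paralog in the summed RPKM was 35.9 to 45.9 percentage points higher with LPS than with PBS in WT, at 82.7% to 98.5%. With PBS, Pfkfb3 and Pdk3 already had the highest share of their steps in every library, and Pfkp in every WT library. At the other 4 steps, the differences in mean share in WT lay between -4.22 and 3.42 points. Of the 34 genes, 12 passed the test as higher (background: 36.5% of the 12064 genes tested were higher) and 14 as lower (background 40.2%). The median log2 fold change of the 34 was -0.10, beside -0.05 over all genes tested. The KO-labelled libraries gave 11 higher (background 38.8%) and 21 lower (background 41.1%), with a median of -0.36 beside -0.04. With TMM, the 61.8% of the 34 genes called lower in KO was above the background, while the 41.2% in WT was near it and the shares called higher were near it or below it. The comparisons within the labels have no libraries in common, but they come from the same fit and share its estimate of the spread. Without WT LPS replicate 1, the WT counts became 12 higher and 20 lower, beside 36.2% and 39.8% of all genes in that fit, so that the share called lower, 58.8%, was then above the background in WT as well.

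These directions depend on the scaling. The summed CPM of the 34 genes rose from 8581 to 8760 in WT PBS to 10709 to 11910 in WT LPS, but their share of the unscaled counts fell from between 1.09% and 1.10% to between 0.865% and 0.935%. Scaling by library totals alone moved the median of all genes by -0.66 relative to TMM in WT and by -0.80 in KO, and left 9 of the 34 genes higher and 24 lower in WT, and 9 higher and 25 lower in KO. All genes moved with them: 68.4% of those tested were lower in WT and 69.5% in KO at that scaling, beside 70.6% and 73.5% of the 34 genes. The excess of lower genes in KO over the background was thus much smaller with totals alone than with TMM. Upper-quartile scaling moved it by -0.31 and -0.36 and gave 10 higher and 22 lower in WT, beside 26.1% and 54.0% of all genes. Fold changes below are relative to TMM, and a change is best read against those shifts.

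**Figure D1:**
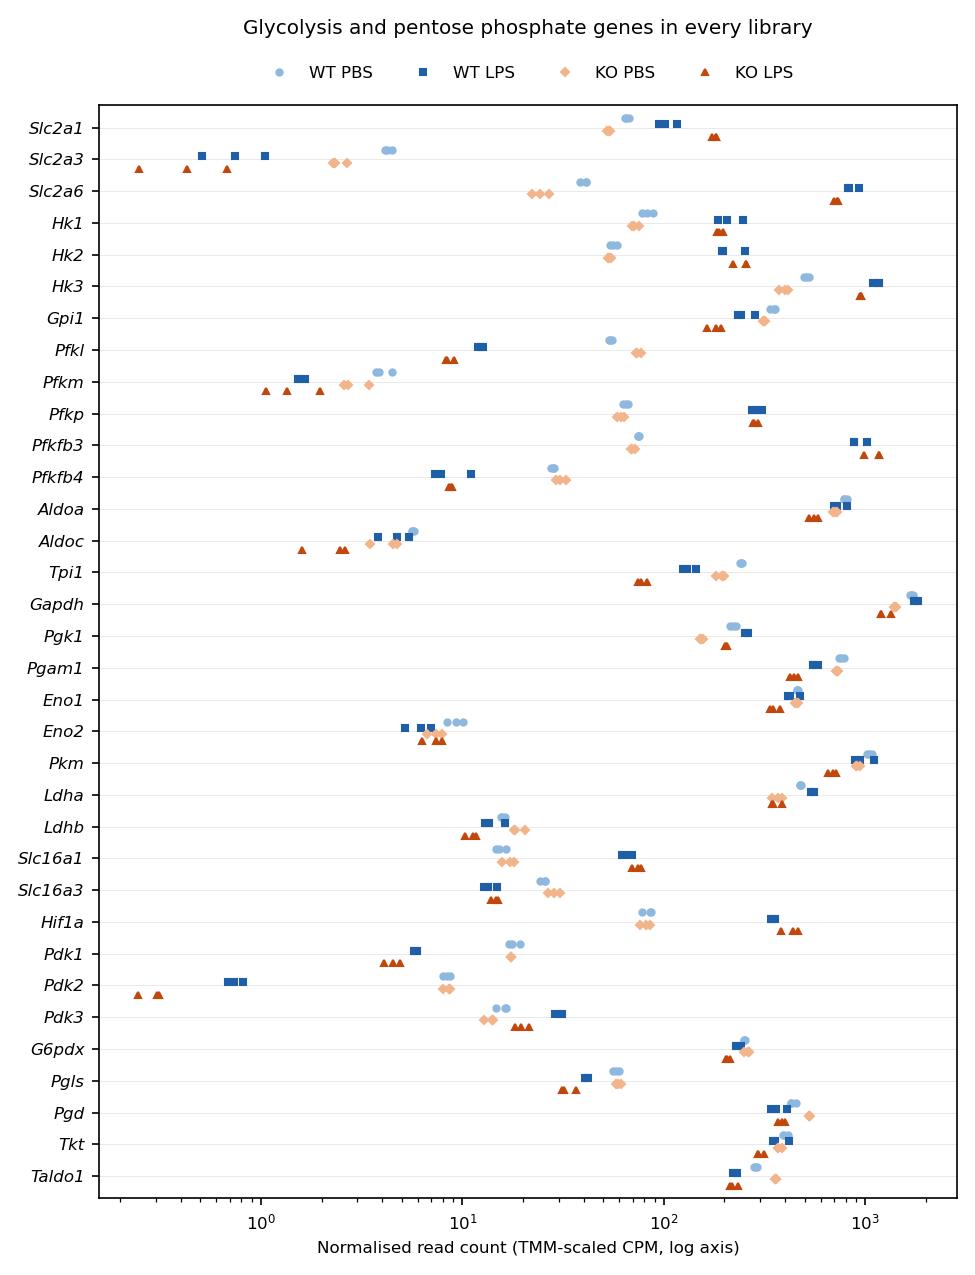
Normalised read count (TMM-scaled CPM, log axis) of each of the 34 genes in all 12 libraries, 1 symbol per library and 1 colour per group. Slc2a6 and Pfkfb3 lay between 22.2 and 75.3 CPM with PBS and between 698 and 1170.0 CPM with LPS, while Pdk2 and Slc2a3 lay between 0.245 and 1.04 CPM with LPS.

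Hif1a (chr12:73901324-73947554, GRCm38) encodes the oxygen-regulated subunit of HIF-1. It was at 85.2, 78.2 and 86.5 CPM in the WT PBS libraries and 342, 356 and 339.9 CPM in the WT LPS libraries. KO-labelled PBS libraries held 85.7, 76.4 and 81.8 CPM and KO-labelled LPS libraries 438, 381 and 464 CPM. All 6 LPS libraries lay above all 6 PBS libraries, and every KO LPS library was above every WT LPS library, whereas the labels overlapped with PBS. The log2 fold change with LPS was 2.05 ± 0.0739 (SE, adjusted p = 9.29e-14) in WT and 2.39 ± 0.0746 (SE, adjusted p = 1.18e-14) in KO. Under LPS, KO differed from WT by 0.31 ± 0.0706 (SE, adjusted p = 0.00249), and the responses differed by 0.34 ± 0.101 (SE, adjusted p = 0.0287) in the interaction test. For Hif1a, the interaction call was lost without WT PBS replicate 1 or 3, WT LPS replicate 3, KO PBS replicate 2 or 3 or KO LPS replicate 1 or 3 and with totals alone, at 0.27 to 0.42 over single libraries left out.

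The core of the HIF response element was looked for in promoter windows from RefSeq (GRCm38.p6, 250 bases before to 50 after a start), as ACGTG or GCGTG on either strand (CACGT or CACGC as printed when on the other strand). ACGTG also lies inside the E-box CACGTG, so a single E-box counts on both strands. Windows were found for 33 of the 34 genes, 48 windows in all. Either motif was in 38 of these (79.2%), against 43.8% of all 32851 windows and 61.4% of the 12303 windows of genes tested here. ACGTG alone was in 45.8%, against 19.6% and 25.3%. Median GC content was 61.0% in the windows of the 34 genes, 60.3% in those of genes tested and 52.7% in all, and its part in these shares was not tested. The 250 bases before the start are shown for 3 genes that rose with LPS and for Pfkl, which fell, with the motif letters in capitals. They are Slc2a1 (chr4:119108495-119108744, plus strand), Slc2a6 (chr2:27027999-27028248, minus strand), Pfkfb3 at the downstream of its 2 starts (chr2:11502091-11502340, minus strand) and Pfkl (chr10:78009808-78010057, minus strand).
Slc2a1: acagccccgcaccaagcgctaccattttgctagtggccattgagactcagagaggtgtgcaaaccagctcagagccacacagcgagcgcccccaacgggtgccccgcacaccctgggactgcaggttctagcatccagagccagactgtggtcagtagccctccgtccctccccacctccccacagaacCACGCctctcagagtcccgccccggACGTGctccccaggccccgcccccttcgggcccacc
Slc2a6: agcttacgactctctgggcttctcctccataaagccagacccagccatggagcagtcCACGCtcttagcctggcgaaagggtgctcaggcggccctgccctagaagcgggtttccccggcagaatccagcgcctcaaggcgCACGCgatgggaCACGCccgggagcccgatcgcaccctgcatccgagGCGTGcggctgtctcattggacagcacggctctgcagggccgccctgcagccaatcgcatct
Pfkfb3: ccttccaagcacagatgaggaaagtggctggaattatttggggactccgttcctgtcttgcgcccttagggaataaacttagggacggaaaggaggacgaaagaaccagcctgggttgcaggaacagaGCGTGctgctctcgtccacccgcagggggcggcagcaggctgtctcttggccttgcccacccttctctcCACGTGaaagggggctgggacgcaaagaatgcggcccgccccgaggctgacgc
Pfkl: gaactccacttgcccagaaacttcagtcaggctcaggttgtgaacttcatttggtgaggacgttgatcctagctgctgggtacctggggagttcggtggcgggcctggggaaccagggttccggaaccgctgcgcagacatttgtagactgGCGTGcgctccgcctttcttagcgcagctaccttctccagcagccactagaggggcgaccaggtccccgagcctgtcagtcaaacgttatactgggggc
Slc2a6 held 4 matches, all of GCGTG, Slc2a1 held 2, and the Pfkfb3 window held 3, of which an overlapping pair is 1 E-box. The window at the upstream start of Pfkfb3 (chr2:11553930-11554179, minus strand), not shown, held 1. Pfkl also held 1, so a match was present in a gene that fell as well as in genes that rose. The letters are a description of the windows and say nothing of binding.

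Glucose enters through transporters of the Slc2a family. Slc2a6 (chr2:27021363-27028000), which encodes GLUT6, a transporter found mainly inside the cell, rose more than any other of the 34 genes. It was at 41.0, 38.3 and 41.1 CPM with PBS and 931, 816 and 828 CPM with LPS in WT, a rise on the log2 scale of 4.42 ± 0.0798 (SE, adjusted p = 1.47e-17). The KO-labelled libraries went from 24.2, 22.2 and 27.0 CPM to 698, 721 and 734 CPM, a change of 4.88 ± 0.0823 (SE, adjusted p = 5.32e-18). LPS and PBS libraries were far apart, and KO libraries were below WT libraries under both treatments. On the log2 scale KO differed from WT by -0.71 ± 0.0754 (SE, adjusted p = 4.93e-06) with PBS and -0.26 ± 0.0684 (SE, adjusted p = 0.00647) with LPS. Since the gap was smaller after LPS, the rise was larger in KO by 0.46 ± 0.102 (SE, adjusted p = 0.00542).

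Slc2a1 (chr4:119108745-119137330) encodes GLUT1, the main glucose transporter of the plasma membrane in many cells. It was at 65.1, 64.4 and 67.3 CPM in WT PBS and 117, 94.7 and 101 CPM in WT LPS, against 53.4, 52.4 and 54.3 CPM in KO PBS and 181, 173 and 181 CPM in KO LPS. The order of the labels turned over: all KO libraries were below all WT libraries with PBS and above them with LPS. In WT the log2 fold change was 0.67 ± 0.0683 (SE, adjusted p = 1.27e-07), and with totals alone it was 0.00 and did not pass. In KO it was 1.74 ± 0.0693 (SE, adjusted p = 3.2e-13). The responses differed by 1.07 ± 0.0963 (SE, adjusted p = 2.31e-06), the largest positive interaction among the 34 genes, and this held in each of the 19 alternatives, at between 0.94 and 1.17. Slc2a3, which encodes GLUT3, was low throughout. Its values were 4.45, 4.22 and 4.15 CPM in WT PBS and 1.04, 0.740 and 0.508 CPM after LPS, then 2.28, 2.67 and 2.34 CPM in KO PBS and 0.675, 0.428 and 0.249 CPM in KO LPS, where the libraries held only 4 to 11 counts. Slc2a3 fell by 2.48 ± 0.220 (SE, adjusted p = 2.06e-08) in WT and by 2.41 ± 0.274 (SE, adjusted p = 4.12e-07) in KO on the log2 scale.

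Slc2a6 held 47.0% ± 0.657 (SD, n = 3) of the summed RPKM of the 3 transporters in WT PBS and 92.6% ± 0.273 in WT LPS, while Slc2a1 went from 50.3% ± 0.681 to 7.36% ± 0.270. Under the KO label Slc2a6 went from 40.2% ± 1.99 to 85.9% ± 0.489 and Slc2a1 from 57.6% ± 1.75 to 14.0% ± 0.478. The share of Slc2a1 was higher in all KO libraries than in any WT library under each treatment. Such shares are taken within a library and do not depend on the scaling between libraries. No test was run on them. The summed RPKM of the step was 40.0 ± 1.10 in WT PBS and 434 ± 33.1 in WT LPS.

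Hexokinases phosphorylate glucose and so trap it in the cell. All 3 rose under both labels. Hk3 (chr13:55005985-55021475), the most abundant per length, was at 509.8, 498 and 524 CPM in WT PBS and 1175, 1093 and 1173 CPM in WT LPS, and at 375, 397 and 411 CPM in KO PBS and 949, 942 and 956 CPM in KO LPS. KO libraries were below WT libraries under both treatments, by log2 fold changes of -0.37 ± 0.0542 (SE, adjusted p = 0.000121) and -0.27 ± 0.0540 (SE, adjusted p = 0.000745). The rise of Hk3 was 1.17 ± 0.0547 (SE, adjusted p = 3.6e-12) in WT. Hk2, the hexokinase best known as inducible, rose by 1.94 ± 0.0928 (SE, adjusted p = 5.81e-12) in WT, from 56.1 ± 2.22 to 214 ± 33.7 CPM (SD, n = 3), and Hk1 by 1.36 ± 0.0857 (SE, adjusted p = 2.09e-10). With LPS, Hk2 was at 245 CPM in KO against 214 CPM in WT (log2 fold change 0.19, adjusted p = 0.101), and without WT LPS replicate 1 this difference was 0.33 and passed. The share of Hk2 in the summed RPKM of the hexokinases went from 5.57% ± 0.0826 to 8.99% ± 1.01 in WT, while Hk3 held 80.7% ± 1.90.

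Gpi1 encodes phosphoglucose isomerase, which makes fructose phosphate at the branch with the pentose phosphate pathway. Its values were 357, 336 and 351 CPM in WT PBS and 284, 232 and 241 CPM in WT LPS, while KO libraries held 315, 311 and 318 CPM with PBS and 164, 193 and 182 CPM with LPS. It fell under both labels, and KO LPS libraries were the lowest. The fall was larger in KO, by an interaction of -0.35 ± 0.105 (SE, adjusted p = 0.0309), and the log2 difference between the labels under LPS was -0.49 ± 0.0749 (SE, adjusted p = 8.1e-05). For Gpi1, the interaction call was lost without WT PBS replicate 2 or 3 or KO LPS replicate 1, at -0.40 to -0.25 over single libraries left out.

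Phosphofructokinase commits sugar to glycolysis, and here a pair of its genes moved in opposite directions. Pfkp (chr13:6579874-6649060), the platelet-type gene, was at 62.9, 65.1 and 66.4 CPM in WT PBS and 307, 273 and 288 CPM in WT LPS. In KO it was at 61.2, 63.3 and 58.4 CPM and 276, 280.4 and 294 CPM, and the labels overlapped under each treatment. Pfkp rose by 2.16 ± 0.0603 (SE, adjusted p = 3.07e-15) in WT and 2.22 ± 0.0605 (SE, adjusted p = 1.92e-15) in KO. Pfkl (chr10:77986947-78009807), the liver-type gene, was at 53.6, 54.2 and 55.0 CPM in WT PBS and 12.7, 12.01 and 12.4 CPM in WT LPS, and at 72.5, 73.2 and 76.7 CPM in KO PBS and 9.08, 8.39 and 8.33 CPM in KO LPS. KO libraries were all higher than WT with PBS and all lower with LPS. Pfkl fell by 2.14 ± 0.0630 (SE, adjusted p = 6.33e-15) in WT and by 3.11 ± 0.0666 (SE, adjusted p = 8.24e-17) in KO on the log2 scale.

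The labels differed in Pfkl by 0.45 ± 0.0535 (SE, adjusted p = 1.7e-05) with PBS and -0.52 ± 0.0764 (SE, adjusted p = 5.82e-05) with LPS. The interaction, -0.97 ± 0.0932 (SE, adjusted p = 4.74e-06), held in each of the 19 alternatives, between -1.11 and -0.95. Pfkm, the muscle-type gene, went in WT from a mean of 4.01 ± 0.386 CPM to 1.58 ± 0.0658 CPM, a fall of 1.34 in log2 units (adjusted p = 6.25e-06). With PBS it was lower in KO (-0.46, adjusted p = 0.0378), a call lost under 7 of the alternatives, among them DESeq2 (adjusted p up to 0.193). KO PBS replicates 1, 2 and 3 held 2.59, 3.44 and 2.69 CPM of Pfkm and 19.2, 23.7 and 0.354 CPM of the summed skeletal muscle markers. In the summed RPKM of the 3 genes, Pfkp went from 47.98%, 49.0% and 49.1% in the WT PBS libraries to 94.8%, 94.4% and 94.6% with LPS, and Pfkl from 47.0% ± 0.149 to 4.65% ± 0.142. In KO, Pfkp went from 40.5% ± 1.496 to 95.9% ± 0.482. The summed RPKM was 31.0 ± 0.505 in WT PBS and 71.2 ± 4.05 in WT LPS.

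The PFKFB enzymes set the level of the fructose bisphosphate that activates phosphofructokinase. Pfkfb3 (chr2:11471430-11554071), whose product acts mostly as the kinase that makes it, was at 75.3, 74.4 and 74.4 CPM in WT PBS and 1022, 876 and 884 CPM in WT LPS. KO PBS libraries held 72.0, 69.4 and 68.9 CPM and KO LPS libraries 1170.0, 989 and 1169 CPM. LPS libraries were all far above the PBS libraries. KO libraries were below WT libraries with PBS, by a log2 difference of -0.09 that did not pass with all libraries, and the labels overlapped with LPS. The log2 fold change was 3.63 ± 0.0801 (SE, adjusted p = 1.48e-16) in WT and 3.98 ± 0.0813 (SE, adjusted p = 4.56e-17) in KO. Under LPS, KO differed from WT by 0.26 ± 0.0716 (SE, adjusted p = 0.00843), and the interaction was 0.35 ± 0.103 (SE, adjusted p = 0.0273). That call held with all libraries, without KO LPS replicate 2 and without WT LPS replicate 1, and no other single library could be left out, at 0.31 to 0.43 over single libraries left out, and was lost with totals alone. Pfkfb4 went the other way, from 28.1 ± 0.504 to 8.71 ± 1.996 CPM in WT, a fall of 1.69 ± 0.107 (SE, adjusted p = 2.25e-10). Pfkfb3 thus went from 62.7% ± 0.555 of their summed RPKM to 98.5% ± 0.196 in WT and from 59.0% ± 1.81 to 98.8% ± 0.133 in KO.

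**Figure D2:**
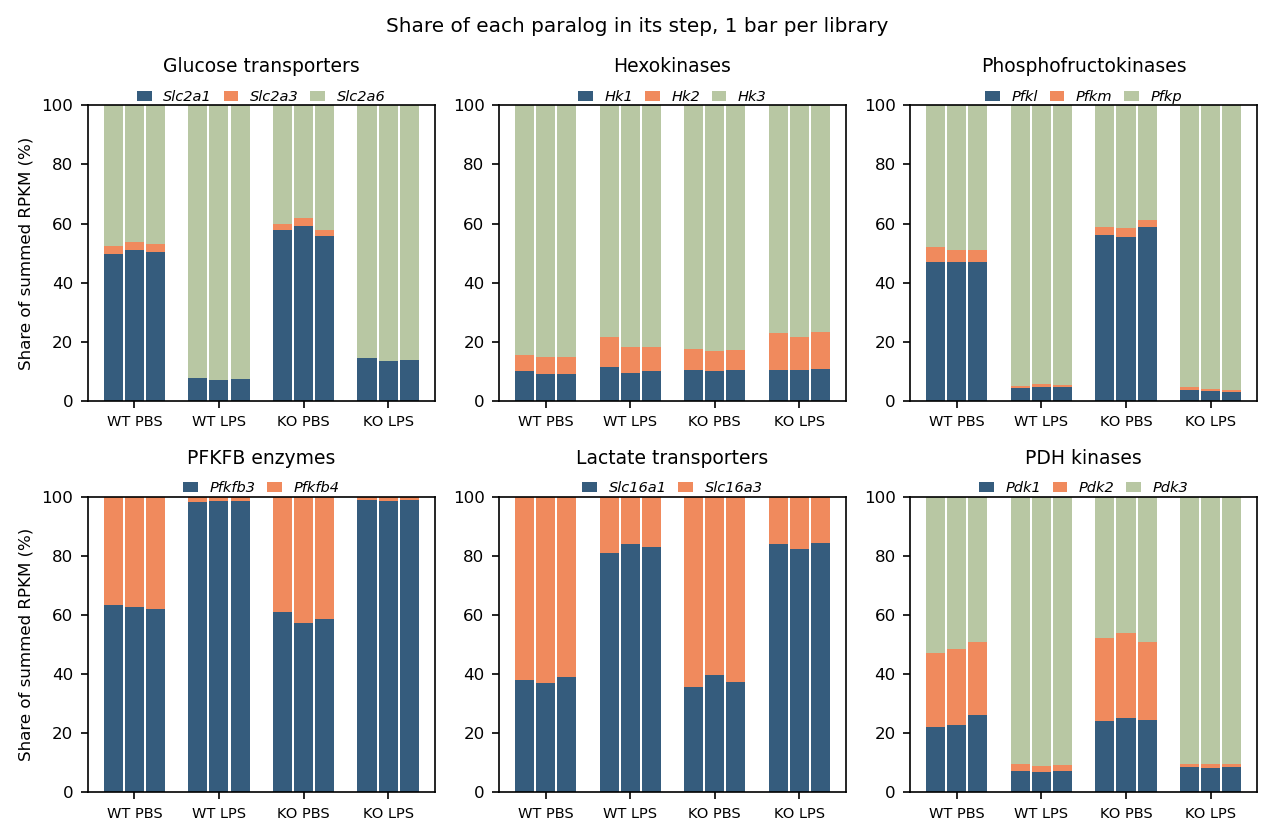
Share (%) of each paralog in the summed RPKM of its step, 1 stacked bar per library, for 6 steps. With LPS, Slc2a6, Pfkp, Pfkfb3, Slc16a1 and Pdk3 each held at least 81.0% of their steps in all 6 libraries, while Hk3 kept at least 76.7% of the hexokinases in every library.

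Aldolase and triose phosphate isomerase split the sugar and interconvert the products. Aldoa, the widely expressed aldolase, held at least 99.5% of the aldolase RPKM in every library. Its values were 809, 779.9 and 781 CPM in WT PBS and 810.1, 702 and 727 CPM in WT LPS, while KO libraries held 692, 711 and 724 CPM with PBS and 524, 582 and 556 CPM with LPS. The KO LPS libraries lay below all others, whereas WT LPS and WT PBS libraries overlapped. The labels differed by -0.43 ± 0.0613 (SE, adjusted p = 4.5e-05) with LPS, and the interaction was -0.27 ± 0.0864 (SE, adjusted p = 0.0381). For Aldoa, the interaction call was lost without WT PBS replicate 2 or 3, WT LPS replicate 3, KO PBS replicate 2 or 3 or KO LPS replicate 1 or 3, and with the replicate number as a block, at -0.32 to -0.21 over single libraries left out. Muscle expresses Aldoa as well, and the part of muscle RNA in its label difference was not tested. Aldoc, a minor aldolase here, had a mean of 4.66 ± 0.813 CPM after LPS in WT and of 2.22 ± 0.549 CPM in KO (log2 fold change -1.07, adjusted p = 0.000405).

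Tpi1 (chr6:124810586-124814158), the triose phosphate isomerase, was at 244, 242 and 239 CPM in WT PBS and 145, 125 and 131 CPM in WT LPS. KO PBS libraries held 182, 199 and 195 CPM and KO LPS libraries 74.0, 82.4 and 77.1 CPM. The 4 groups did not overlap at all, in the order WT PBS, KO PBS, WT LPS, KO LPS. Tpi1 fell by 0.86 ± 0.0638 (SE, adjusted p = 2.04e-09) in WT and by 1.303 ± 0.0654 (SE, adjusted p = 8.01e-12) in KO. Under LPS the label difference was -0.78 ± 0.0657 (SE, adjusted p = 2.28e-07), the smallest adjusted p of the 34 genes in that comparison, and with PBS it was -0.33 ± 0.0627 (SE, adjusted p = 0.00113). The interaction, -0.45 ± 0.0906 (SE, adjusted p = 0.00292), held under each of 19 alternatives.

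Gapdh (chr6:125161852-125166467), the dehydrogenase of glyceraldehyde phosphate, had the highest RPKM of the 34 genes in every group. It was at 1671, 1725 and 1681 CPM in WT PBS and 1827, 1753 and 1766 CPM in WT LPS, and at 1423, 1386 and 1407 CPM in KO PBS and 1199.8, 1335 and 1190.5 CPM in KO LPS. KO libraries lay below WT libraries under both treatments, by -0.27 ± 0.0548 (SE, adjusted p = 0.00205) and -0.52 ± 0.0550 (SE, adjusted p = 2.22e-06). WT LPS libraries were all above WT PBS libraries, but the change did not pass (log2 fold change 0.07, adjusted p = 0.223) and had the opposite sign under upper-quartile scaling (-0.24) and totals alone (-0.59). Gapdh is often used as a reference gene, and its interaction was -0.25 ± 0.0775 (SE, adjusted p = 0.0326). For Gapdh, the interaction call was lost without WT PBS replicate 2 or 3, WT LPS replicate 3 or KO LPS replicate 1 or 3, at -0.31 to -0.22 over single libraries left out.

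Pgk1 (chrX:106187100-106203699) encodes phosphoglycerate kinase, which makes ATP in the lower part of the pathway. It was at 229, 220.1 and 214 CPM in WT PBS and 254, 255 and 262 CPM in WT LPS, against 152, 154 and 156 CPM in KO PBS and 207, 204 and 201 CPM in KO LPS. KO libraries were below WT libraries throughout, by -0.52 ± 0.0493 (SE, adjusted p = 1.51e-06) with PBS, the smallest adjusted p of the 34 genes there, and by -0.33 ± 0.0496 (SE, adjusted p = 6.69e-05) with LPS. Pgk1 was higher with LPS in both labels (0.22 and 0.41), but lower with totals alone (-0.44 and -0.39). Pgam1, the phosphoglycerate mutase, was at 782, 755 and 743 CPM in WT PBS and 584, 548 and 552 CPM in WT LPS, while KO libraries held 718, 726 and 734 CPM with PBS and 425, 463 and 444 CPM with LPS. It fell under both labels and most in KO, with an interaction of -0.27 ± 0.0746 (SE, adjusted p = 0.0193). Under LPS its label difference was -0.34 ± 0.0530 (SE, adjusted p = 0.000105). For Pgam1, the interaction call was lost without WT PBS replicate 3 or KO LPS replicate 1, at -0.33 to -0.24 over single libraries left out.

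Enolase and pyruvate kinase complete glycolysis. Eno1, which held about 98% of the enolase RPKM, was at 465, 456 and 458 CPM in WT PBS and 476, 412 and 424 CPM in WT LPS, while KO libraries held 448, 457 and 464 CPM with PBS and 336, 378 and 347 CPM with LPS. Only the KO LPS group stood apart, below the other groups, by -0.31 ± 0.0625 (SE, adjusted p = 0.000947) against WT LPS. The interaction was -0.30 ± 0.0880 (SE, adjusted p = 0.0281). For Eno1, the interaction call was lost without WT PBS replicate 2 or 3 or KO LPS replicate 1 or 3, at -0.35 to -0.23 over single libraries left out. Eno2, the neuronal-type enolase, was at 8.39, 9.30 and 10.1 CPM in WT PBS and 6.998, 5.18 and 6.26 CPM in WT LPS, while KO libraries held 7.42, 7.90 and 6.66 CPM with PBS and 6.32, 7.41 and 7.96 CPM with LPS. It fell in WT by 0.59 (adjusted p = 0.000341), the labels overlapped with LPS, and the interaction was 0.57 ± 0.176 (SE, adjusted p = 0.0330). For Eno2, the interaction call was lost without WT PBS replicate 2 or 3, WT LPS replicate 2 or 3, KO PBS replicate 1 or 3 or KO LPS replicate 2 or 3 and with totals alone, at 0.46 to 0.68 over single libraries left out.

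Pkm, the pyruvate kinase of most tissues, was at 1077, 1021 and 1045 CPM in WT PBS and 1103, 890.3 and 945 CPM in WT LPS. KO PBS libraries held 903, 911 and 945 CPM and KO LPS libraries 653, 691 and 717 CPM. WT LPS replicate 1 was the highest of its group and lay above WT PBS, while the other WT LPS libraries lay below it. With LPS, KO was lower than WT by -0.51 ± 0.0701 (SE, adjusted p = 3.04e-05), and the interaction was -0.32 ± 0.0988 (SE, adjusted p = 0.0322). For Pkm, the interaction call was lost without WT PBS replicate 2 or 3 or KO LPS replicate 1, at -0.39 to -0.23 over single libraries left out. The counts are per gene, so the M1 and M2 splice forms of Pkm cannot be told apart.

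Lactate dehydrogenase converts pyruvate to lactate and back. Ldha (chr7:46842274-46855627), the form that favours lactate, was at 477, 477 and 476 CPM in WT PBS and 535, 547 and 557 CPM in WT LPS. KO PBS libraries held 344, 368 and 386 CPM and KO LPS libraries 346, 385 and 347 CPM. All KO libraries were below all WT libraries, by -0.38 ± 0.0584 (SE, adjusted p = 0.000205) with PBS and -0.60 ± 0.0588 (SE, adjusted p = 1.01e-06) with LPS. In WT, Ldha was higher with LPS by 0.20 ± 0.0584 (SE, adjusted p = 0.00562), but lower under upper-quartile scaling (-0.11) and totals alone (-0.47). The KO change was -0.03 (adjusted p = 0.680). Ldhb, the heart-type form, was at 15.5, 16.2 and 15.8 CPM in WT PBS and 12.9, 16.2 and 13.5 CPM in WT LPS, while KO libraries held 18.1, 20.5 and 18.2 CPM with PBS and 11.3, 10.3 and 11.6 CPM with LPS. The KO label was thus highest with PBS and lowest with LPS. The interaction was -0.62 ± 0.130 (SE, adjusted p = 0.00362) and held under each of 19 alternatives, while the higher level with PBS (0.26, adjusted p = 0.0311) did not hold in 5 of them.

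Slc16a1 (chr3:104638664-104658462) encodes MCT1, which carries lactate in either direction. It was at 14.8, 15.2 and 16.4 CPM in WT PBS and 63.2, 69.6 and 62.2 CPM in WT LPS, and at 15.8, 17.3 and 18.0 CPM in KO PBS and 77.2, 69.1 and 74.8 CPM in KO LPS. LPS libraries were all above PBS libraries, and the labels overlapped under both treatments. The rise was 2.07 ± 0.0749 (SE, adjusted p = 9.9e-14) in WT and 2.11 ± 0.0742 (SE, adjusted p = 5.87e-14) in KO. The label difference under LPS, 0.18 ± 0.0694 (SE, adjusted p = 0.0466), was lost under 16 of the 20 alternatives. Slc16a3 encodes MCT4, known as the lactate exporter of glycolytic cells. It went from 25.2 ± 0.790 to 13.7 ± 1.048 CPM in WT, a fall of 0.88 ± 0.0779 (SE, adjusted p = 1.94e-08), and fell by 0.97 in KO (adjusted p = 4.59e-09). Slc16a1 went from 38.1% ± 1.01 of their summed RPKM to 82.7% ± 1.51 in WT and from 37.5% ± 1.92 to 83.5% ± 1.18 in KO.

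Pyruvate dehydrogenase kinases hold pyruvate back from the mitochondrial citrate cycle. Pdk2 (chr11:95026258-95041371) was at 8.39, 8.66 and 7.97 CPM in WT PBS and 0.810, 0.683 and 0.733 CPM in WT LPS, and at 8.72, 8.53 and 8.04 CPM in KO PBS and 0.245, 0.306 and 0.311 CPM in KO LPS. The LPS libraries were far below the PBS libraries, and KO was below WT only after LPS. Those values rest on 12 to 14 counts per library in WT LPS and 4 to 5 in KO LPS. Pdk2 fell by 3.48 ± 0.140 (SE, adjusted p = 4.25e-13) in WT and by 4.85 ± 0.174 (SE, adjusted p = 7.71e-14) in KO. The labels differed by -1.35 ± 0.302 (SE, adjusted p = 0.00497) under LPS, and the interaction was -1.37 ± 0.313 (SE, adjusted p = 0.0137). For Pdk2, the interaction call was lost without KO LPS replicate 1, at -1.42 to -1.27 over single libraries left out.

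Pdk3 was at 16.5, 16.2 and 14.7 CPM in WT PBS and 28.9, 31.1 and 30.9 CPM in WT LPS, and at 14.0, 12.8 and 14.2 CPM in KO PBS and 19.6, 18.3 and 21.4 CPM in KO LPS. It rose in WT and less in KO, and KO libraries were below WT libraries under both treatments. With PBS, that log2 difference was -0.21 and did not pass with all libraries. The log2 fold change was 0.94 ± 0.0757 (SE, adjusted p = 6.06e-09) in WT and 0.53 ± 0.0801 (SE, adjusted p = 1.2e-05) in KO, where it did not pass with upper-quartile scaling and was negative with totals alone (-0.27). The label difference under LPS was -0.61 ± 0.0779 (SE, adjusted p = 1.43e-05), and the interaction was -0.41 ± 0.110 (SE, adjusted p = 0.0182). For Pdk3, the interaction call was lost without WT PBS replicate 3, at -0.48 to -0.35 over single libraries left out. Pdk1, a known HIF-1 target, fell from 18.0 ± 1.14 to 5.84 ± 0.129 CPM in WT, by 1.62 ± 0.0851 (SE, adjusted p = 1.73e-11), while Hif1a mRNA rose. Pdk3 went from 51.0% ± 1.88 of the summed RPKM of the 3 kinases to 90.8% ± 0.431 in WT, and from 47.6% ± 1.61 to 90.3% ± 0.0553 in KO. The sum itself was 14.7 ± 0.381 RPKM in WT PBS and 15.8 ± 0.570 RPKM in WT LPS, and 13.6 ± 0.322 and 10.4 ± 0.813 RPKM in KO.

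**Figure D3:**
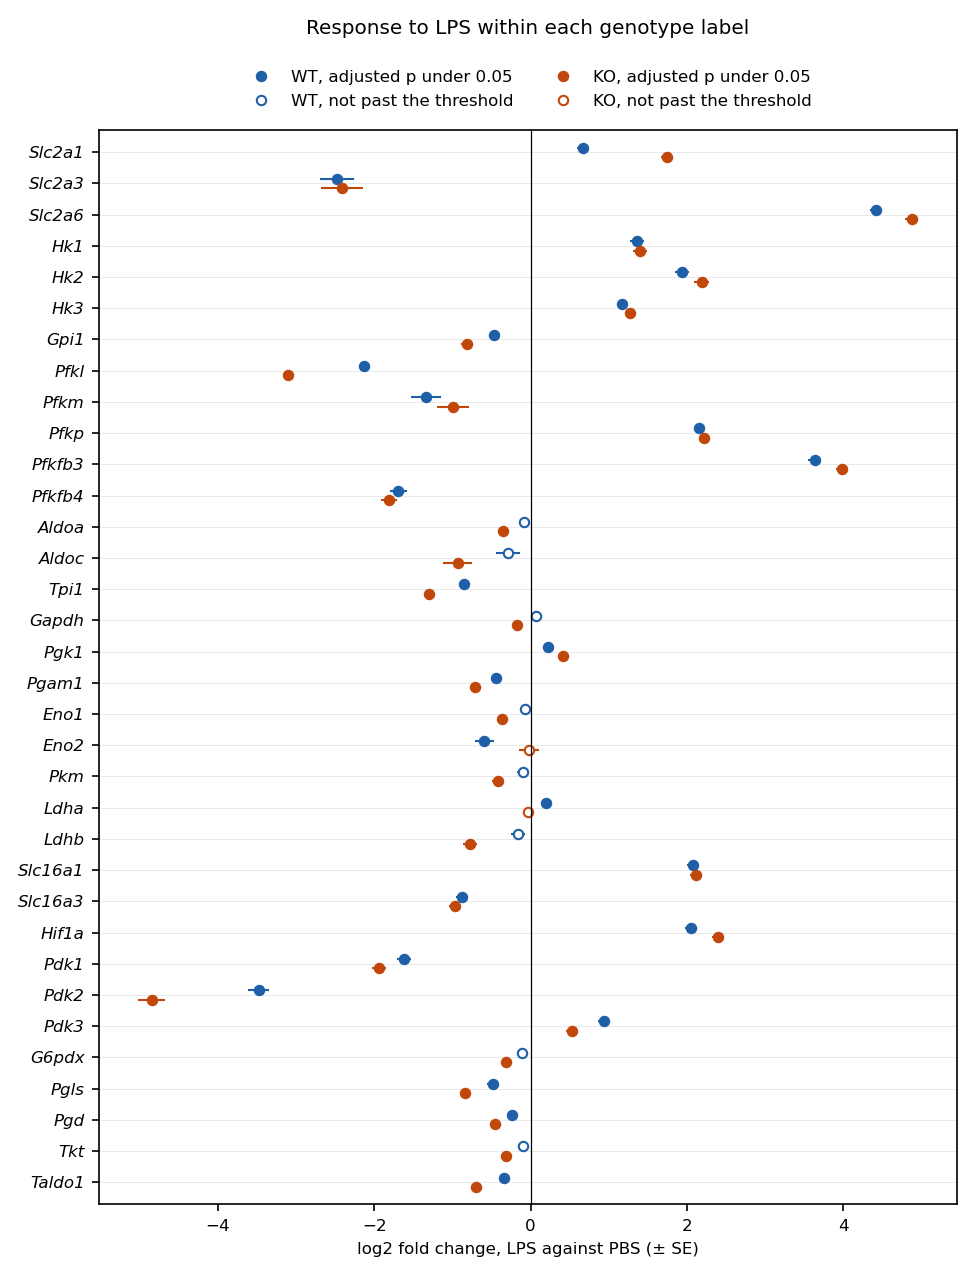
Log2 fold change of LPS against PBS (± SE) for each of the 34 genes, in WT and in KO-labelled libraries, with open symbols where adjusted p did not pass 0.05. Slc2a1, Slc2a6, the hexokinases, Pfkp, Pfkfb3, Slc16a1 and Hif1a sit to the right, Pdk2, Pfkl and Slc2a3 to the left, and for most lower glycolytic genes the KO symbol lies to the left of the WT symbol.

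Of the 5 pentose phosphate genes, Pgls, Pgd and Taldo1 fell with LPS in WT, and G6pdx and Tkt did not pass the test with all libraries. G6pdx, the rate-limiting entry enzyme, went in WT from a mean of 251 ± 2.59 CPM to 233 ± 6.86 CPM (log2 fold change -0.10, adjusted p = 0.0722), and fell by 0.31 in KO (adjusted p = 2.58e-05). Pgls, the lactonase, was at 56.0, 58.0 and 59.9 CPM in WT PBS and 41.8, 41.5 and 40.8 CPM in WT LPS, while KO libraries held 58.9, 57.7 and 61.0 CPM with PBS and 31.3, 36.6 and 31.8 CPM with LPS. KO LPS libraries were the lowest, and its interaction was -0.35 ± 0.0920 (SE, adjusted p = 0.0163). For Pgls, the interaction call was lost without KO LPS replicate 1, at -0.42 to -0.30 over single libraries left out. Pgd, which makes NADPH as well, was higher in KO with PBS (0.26, adjusted p = 0.00673), at 526 ± 5.04 against 438 ± 14.7 CPM, and fell with LPS by 0.24 in WT and 0.45 in KO.

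Tkt and Taldo1 run the branch that returns sugar to glycolysis. Taldo1 (chr7:141392160-141402976), the transaldolase, was at 286, 288 and 279 CPM in WT PBS and 221, 230.5 and 224 CPM in WT LPS. KO PBS libraries held 356, 362 and 359 CPM and KO LPS libraries 212, 234 and 217 CPM. KO was above WT with PBS without overlap, by 0.34 ± 0.0515 (SE, adjusted p = 0.000201), and overlapped with it after LPS. The interaction, -0.36 ± 0.0734 (SE, adjusted p = 0.00282), held under each of 19 alternatives. Tkt, the transketolase, had a mean after LPS of 374 ± 38.9 CPM in WT and 301 ± 12.97 CPM in KO (log2 fold change -0.32, adjusted p = 0.00138), and did not pass between LPS and PBS in WT (-0.09, adjusted p = 0.208). Without WT LPS replicate 1, Tkt, G6pdx, Aldoa, Aldoc, Eno1 and Pkm passed as lower with LPS in WT, by log2 fold changes between -0.41 and -0.13.

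The genotype labels were then compared as such. With PBS, 4 of the 34 genes were higher in KO (background 12.3%) and 11 lower (background 13.0%), with a median log2 difference of -0.09 beside 0.00 over all genes tested. The 32.4% of the genes that were lower exceeded the background. Taldo1, Pgd, Pfkl and Ldhb were higher. The lower genes were the 3 glucose transporters, Hk3, Pfkm, Aldoc, Tpi1, Gapdh, Pgk1, Eno2 and Ldha, at log2 differences between -0.81 and -0.27. With LPS, 4 were higher (background 22.1%) and 20 lower (background 19.3%), with a median of -0.31 beside 0.00. The share of lower genes, 58.8%, exceeded the background here too. Slc2a1, Hif1a, Pfkfb3 and Slc16a1 were the higher genes. The lower genes included Gpi1, Pfkl, both aldolases, Tpi1, Gapdh, Pgk1, Pgam1, Eno1, Pkm and both lactate dehydrogenases, but neither PFKFB gene. They lay at between -1.35 for Pdk2 and -0.17 for G6pdx. Markers of other cells moved with the labels as well. All 4 fibroblast markers were lower in KO under both treatments. The 8 muscle markers were lower in KO with LPS, and 0 of the 8 passed with PBS. Mesothelial markers summed to 6.37 to 6.97 CPM in WT and 3.26 to 4.28 CPM in KO with PBS, and to 6.54 to 7.29 CPM and 4.65 to 5.66 CPM with LPS. Of these, Wt1 was lower in KO with PBS (-1.61) and with LPS (-1.46), and Upk3b with PBS (-1.11). Wt1 had LPS means of 2.83 CPM in WT and 1.03 CPM in KO. The other 4 mesothelial markers did not pass with LPS. Among these, the means of Msln (1.26 and 1.52 CPM) and Lrrn4 (1.10 and 1.17 CPM) were higher in KO. Those of Upk3b (1.12 and 0.946 CPM) and Krt19 (0.495 and 0.472 CPM) were lower. S100a8, the only neutrophil marker tested, was higher in KO with LPS (0.49). The summed neutrophil markers with LPS, 8.04 to 10.2 CPM in WT and 8.40 to 16.1 CPM in KO, overlapped and were mostly S100a8. S100a9, Mpo and Elane had 0 to 2 counts in every library, and Ltf 0 to 9. Camp had 4 to 10 counts in the WT LPS libraries and 8 to 13 in the KO LPS libraries. The part of other cells in the differences was not tested. Of the 8 macrophage markers, 1 was higher and 3 lower in KO under LPS, namely Cd14 (0.68), Mertk (-1.24), Csf1r (-0.53) and Cd68 (-0.21), and with PBS Cd14 was higher (0.20) and Adgre1 lower (-0.33). Kit, the only mast cell marker tested, had means after LPS of 1.10 CPM (WT) and 3.22 CPM (KO), a log2 difference of 1.54, and with PBS it was lower in KO (-1.39). Their part was not tested either. KO PBS replicate 3 lacked the muscle markers that KO PBS replicates 1 and 2 held, and without it the counts with PBS were 4 higher and 9 lower, beside 11.1% and 9.60% of all genes in that fit. Without WT LPS replicate 1, which enters the estimate of the spread, they were 5 higher and 16 lower with PBS, beside 15.5% and 16.3% of all genes, and 5 higher and 20 lower with LPS, beside 22.6% and 18.5%. Of the 15 calls with PBS, 11 held in every alternative tried, and Aldoc, Eno2, Pfkm and Ldhb did not. Of the 24 with LPS, 19 held, and Pfkfb3, Slc16a1, G6pdx, Ldhb and Pdk1 did not.

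**Figure D4:**
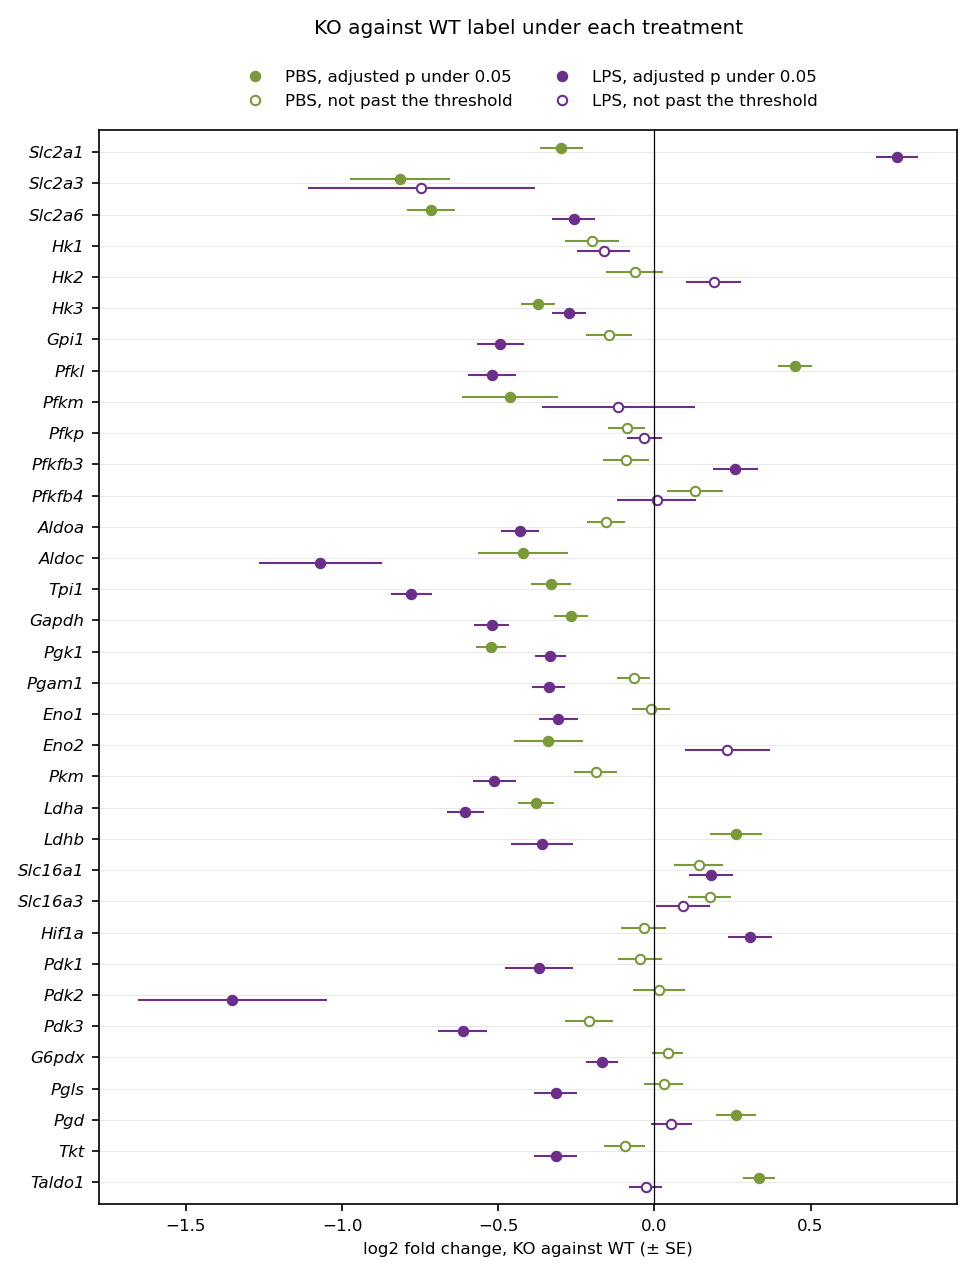
Log2 fold change of KO against WT (± SE) for each of the 34 genes with PBS and with LPS, with open symbols where adjusted p did not pass 0.05. With LPS, 20 genes lie to the left of 0 past the threshold, while Slc2a1 moves from -0.30 with PBS to 0.78 with LPS and Pfkl from 0.45 to -0.52.

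The response to LPS differed between the labels, by the interaction test, for 18 of the 34 genes, 5 with a more positive response in KO (background 9.78%) and 13 with a more negative one (background 8.26%). Its median was -0.22 beside 0.01 over all genes tested. The split depends on the scaling. With totals alone, 2 were more positive and 19 more negative, beside 627 and 1945 of the 12064 genes. Upper-quartile scaling gave 5 and 17, beside 932 and 1229. The positive genes were Slc2a1, Eno2, Slc2a6, Pfkfb3 and Hif1a, and the negative ones were 8 enzymes of glycolysis (Gpi1, Pfkl, Aldoa, Tpi1, Gapdh, Pgam1, Eno1 and Pkm), Ldhb, Pdk2, Pdk3, Pgls and Taldo1. Of the 18 calls, 6 held in every alternative tried, for Slc2a1, Slc2a6, Pfkl, Tpi1, Ldhb and Taldo1. The count was 8 without WT PBS replicate 3, 8 without KO LPS replicate 1, 11 without WT PBS replicate 2 and 12 without KO LPS replicate 3, and 21 without WT LPS replicate 1. The share of all genes called in the same fits was 13.0%, 12.7%, 13.4%, 15.3% and 21.9%, beside 18.0% with all libraries. Markers of cell types passed in the interaction as well. Of the 8 muscle markers, 3 had a more negative response in KO, and Kit had a more positive one (2.94). Of the 8 macrophage markers, 2 were more positive and 3 more negative. None of the fibroblast or mesothelial markers passed. The part of these cells was not tested. Since the interaction is built from the same 12 libraries as the other comparisons, it adds no independent evidence to them.

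Other genes of the pathway were taken from a list of 67, written from general knowledge but with earlier results of these data known. Of these, 61 were in the tables and 55 were tested. In WT, 8 were higher with LPS (14.5%, beside 36.5% of all genes tested) and 35 lower (63.6%, beside 40.2%). In KO, 12 were higher (21.8%, beside 38.8%) and 33 lower (60.0%, beside 41.1%). With totals alone the WT counts were 3 and 45, beside 18.4% higher and 68.4% lower of all genes. The KO counts were then 4 and 48, beside 2202 higher and 8387 lower of the 12064 genes. The median in WT was -0.55, beside -0.05 over all genes. Genes are named here only if they had at least 5 CPM in the higher group. The most raised of these in WT were P4ha1 (2.03 ± 0.0548 SE, adjusted p = 2e-15), a prolyl hydroxylase of collagen, Minpp1 (1.49 ± 0.0550 SE, adjusted p = 1.29e-13), an inositol polyphosphate phosphatase, and Rpe (1.48 ± 0.0964 SE, adjusted p = 3.23e-10), the ribulose phosphate epimerase. Vegfa, a growth factor of vessels and known HIF target, fell by 3.28 ± 0.113 (SE, adjusted p = 5.09e-14), Pfkfb2 by 2.61 ± 0.109 (SE, adjusted p = 7.15e-13), and Pck2, the mitochondrial phosphoenolpyruvate carboxykinase, by 2.33 ± 0.126 (SE, adjusted p = 2.54e-11). Of the 9 genes of glucose entry and sugar phosphates tested, 8 were lower and 0 higher, and of the 9 of gluconeogenesis and glycogen, 7 were lower and 0 higher. Of the 16 HIF partners and targets, 3 were higher and 9 lower. These small groups are to be read against the same 36.5% and 40.2% of all genes. In KO the counts were 0 higher and 7 lower for glucose entry, 0 and 6 for gluconeogenesis and glycogen, and 7 and 8 for the HIF partners and targets, beside 38.8% and 41.1%.

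With PBS, 8 of the 55 were higher in KO than in WT (14.5%, beside 12.3% of all genes tested) and 4 lower (7.27%, beside 13.0%). Under LPS, 5 of the 55 were higher in KO than in WT (9.09%, beside 22.1% of all genes tested) and 23 lower (41.8%, beside 19.3%). Dld (0.32 ± 0.0676 SE, adjusted p = 0.00117), a subunit shared by the pyruvate dehydrogenase complex, Arnt (0.27 ± 0.0680 SE, adjusted p = 0.00516), the partner of Hif1a, and Ero1a (0.26 ± 0.0598 SE, adjusted p = 0.00274), an oxidase of the endoplasmic reticulum, were the most raised of those with at least 5 CPM in the higher group. Slc2a8 (-0.89 ± 0.147 SE, adjusted p = 0.000162), another glucose transporter, Epas1 (-0.85 ± 0.129 SE, adjusted p = 0.000154), which encodes HIF-2α, and Pygb (-0.73 ± 0.119 SE, adjusted p = 0.000163), a glycogen phosphorylase, were the most lowered within the same limit. Of the 9 gluconeogenesis and glycogen genes tested, 8 were lower in KO under LPS, beside the same 19.3% of all genes. Hif1a and Epas1 thus differed between the labels in opposite directions after LPS.

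Per length, the levels of the steps spanned a wide range. In WT PBS, Gapdh was at 1132 ± 19.2 RPKM, Aldoa at 433 ± 9.05, Pgam1 at 428 ± 11.3 and Pkm at 403 ± 10.8, of which Aldoa and Pgam1 did not differ beyond their spread. The PFKFB genes summed to 21.6 ± 0.0907 RPKM, the phosphofructokinases to 31.0 ± 0.505 and the lactate transporters to 9.15 ± 0.329. With LPS these low steps rose, to 170.4 ± 15.4, 71.2 ± 4.05 and 17.8 ± 0.900 RPKM in WT. Slc2a6 alone reached 401 ± 29.6 RPKM in WT LPS, close to Aldoa at 409 ± 31.0 RPKM. These 2 values did not differ beyond their spread.

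**Figure D5:**
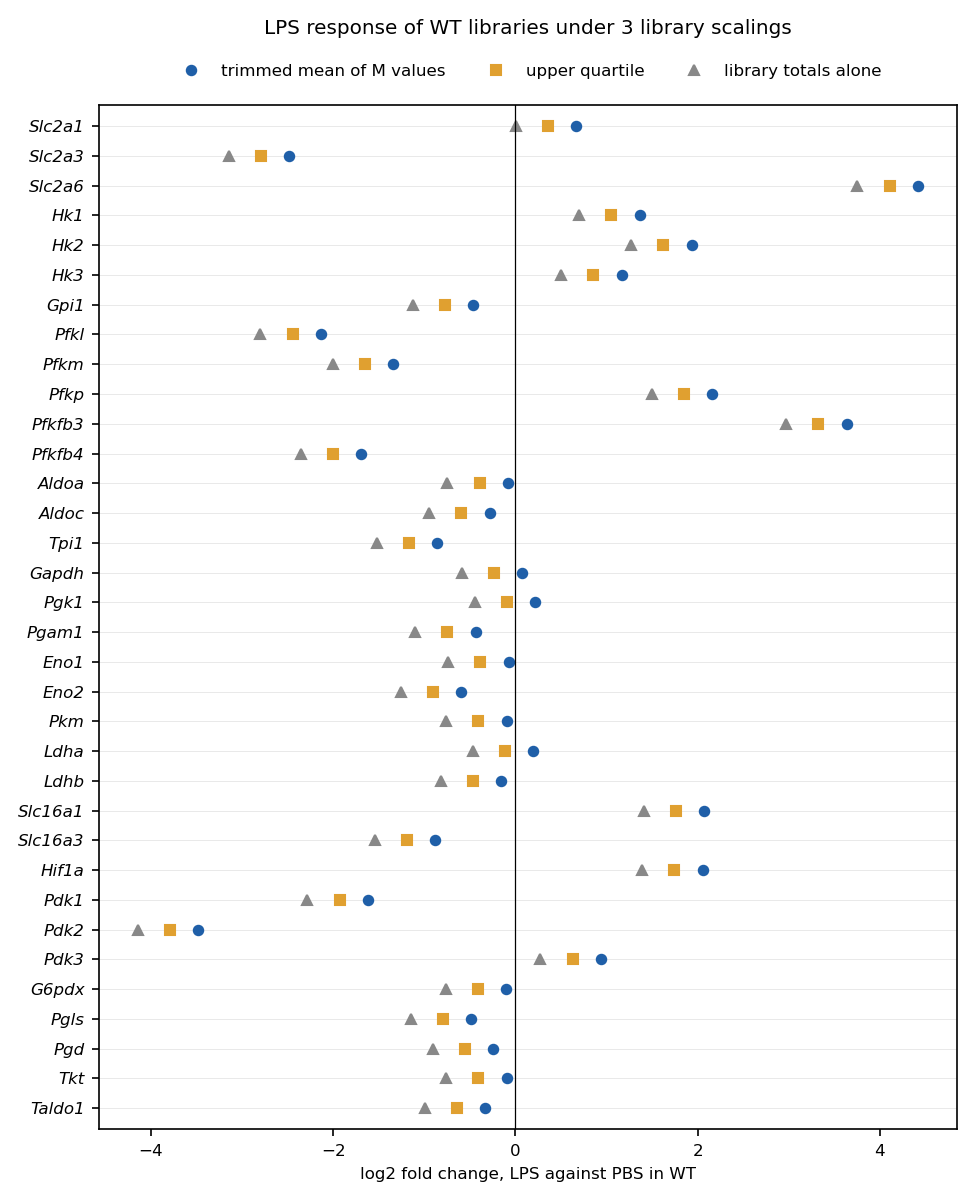
Log2 fold change of LPS against PBS in WT for each of the 34 genes under 3 library scalings. Each gene moves to the left by a similar step, so Slc2a6, Pfkfb3, Pfkp, Slc16a1, Hif1a, Hk1, Hk2, Hk3 and Pdk3 stay above 0 under all 3, while Gapdh, Pgk1 and Ldha change sign and Slc2a1 reaches 0.00 with totals alone.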

How the data were processed

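RNA of 12 macrophage libraries was sequenced, 3 in each of 4 groups taken from the labels. The authors deposited estimated counts per gene, 1 table per library. The submitters' processing notes name Bowtie2, RSEM 1.3.1 and GRCm38.p6, while the study's methods name STAR and HTSeq, so the counting tool is uncertain. The estimated counts were rounded to whole numbers and, with edgeR 4.0.16 (limma 3.58.1, R 4.3.3), filtered by filterByExpr to 12064 of 16920 genes, scaled by TMM and fitted with the robust quasi-likelihood model, 1 mean per group over all 12 libraries. P-values are two-sided with Benjamini-Hochberg adjustment over all genes tested, at 0.05. The interaction is the KO response minus the WT response. The code was tested on simulated data.

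RPKM used GENCODE exon lengths, known for 16408 genes. Promoter windows came from RefSeq (GRCm38.p6), to which 16803 genes matched. The floor of 3 counts lay between 0.105 and 0.187 CPM per library and covers counting error only. Members, marker lists and the list of other pathway genes were chosen with earlier results of these data known. Values in every library are given for genes called in the interaction, the 8 largest changes in WT, and the 4 smallest adjusted p of each label comparison. Other pathway genes named are the 3 largest changes each way with at least 5 CPM in the higher group. Alternatives were RLE, upper-quartile and totals scaling, 2 other filters, DESeq2 1.42.0, the replicate number as a block, fits of the 6 libraries compared, and leaving out each library in turn. Results without single libraries are not given for the other pathway genes.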

Additional observations from a re-analysis of the deposited data

Results flagged for a closer look

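For 18 of the 34 genes, the response to LPS differed between the labels by the interaction test of edgeR, with values as the KO minus the WT log2 fold change. Positive values were 1.07 for Slc2a1, 0.57 for Eno2, 0.46 for Slc2a6, 0.35 for Pfkfb3 and 0.34 for Hif1a. Negative values in upper glycolysis were -0.97 for Pfkl, -0.45 for Tpi1, -0.35 for Gpi1 and -0.27 for Aldoa. Those in lower glycolysis were -0.32 for Pkm, -0.30 for Eno1, -0.27 for Pgam1 and -0.25 for Gapdh. The fates of pyruvate gave -1.37 for Pdk2, -0.62 for Ldhb and -0.41 for Pdk3, and the pentose phosphate branch gave -0.36 for Taldo1 and -0.35 for Pgls. Of all genes tested, 9.78% had a more positive and 8.26% a more negative response in KO. Of the 18 calls, 6 held in every alternative tried, and the count was 8 without WT PBS replicate 3 and 8 without KO LPS replicate 1.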

How the results depend on the processing

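No call of LPS against PBS, and no call between the labels, changed sign except for Pgk1, Ldha and Pdk3 within a label. Upper-quartile scaling gave WT log2 fold changes with LPS of -0.24 for Gapdh, -0.091 for Pgk1 and -0.11 for Ldha, and totals alone gave -0.59, -0.44 and -0.47. In KO, totals alone gave -0.39 for Pgk1 and -0.27 for Pdk3. These scalings moved the median of all genes as given above. The other reversals were of values that did not pass the test with TMM and all libraries. For LPS in KO, Eno2 was 0.0075 with RLE and 0.0077 with DESeq2, and over single libraries left out Eno2 ran from -0.093 to 0.069 and Ldha from -0.080 to 0.0097. Between the labels with PBS, Eno1 was 0.0064 with RLE, 0.038 with totals alone and 0.0064 with DESeq2, Hif1a 0.014 and Pdk1 0.0021 with totals alone, and Pdk2 -0.0064 with upper-quartile scaling. With single libraries left out, Eno1 ran from -0.016 to 0.029, Hif1a from -0.078 to 0.033, Pdk1 from -0.060 to 0.0050 and Pdk2 from -0.016 to 0.070. Between the labels with LPS, Pfkfb4 was -0.059 with upper-quartile scaling, -0.080 with totals alone, -0.0081 with at least 10 counts in every library and -0.0043 with the 6 libraries compared, and Pgd was -0.012 with upper-quartile scaling and -0.034 with totals alone. With single libraries left out, Pfkfb4 ran from -0.10 to 0.21, Pgd from -0.0023 to 0.13, Pfkm from -0.39 to 0.069, Pfkp from -0.073 to 0.013 and Taldo1 from -0.068 to 0.00046. For the interaction, totals alone gave -0.065 for Slc2a3, -0.0998 for Hk1, -0.038 for Hk3, -0.081 for Pfkp and -0.0988 for Slc16a1, and upper-quartile scaling gave -0.0075 for Hk1 and -0.0081 for Slc16a1. With single libraries left out, Slc2a3 ran from -0.34 to 0.36, Hk1 from -0.053 to 0.16, Pfkfb4 from -0.23 to 0.081 and Slc16a1 from -0.043 to 0.092. For results whose scaling is not at issue, the cause was not tested.

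Genes called and changed by more than 1 log2 unit numbered 14 with LPS in WT, 15 with LPS in KO, 0 between the labels with PBS, 2 with LPS and 2 in the interaction, beside 36.4%, 41.7%, 3.31%, 4.72% and 2.69% of all genes tested. Leaving out single libraries gave 26 to 32, 32 to 32, 11 to 21, 22 to 25 and 8 to 21 calls in the same order, beside 73.0% to 76.4%, 76.1% to 80.7%, 16.3% to 31.8%, 33.6% to 41.0% and 12.7% to 21.9% of all genes. Same-numbered libraries had deviations that correlated between -0.08 and 0.13, so the numbers were not taken as pairs. With the replicate block the counts were 26, 32, 15, 23 and 17, beside 76.8%, 79.8%, 24.6%, 41.7% and 17.7% of all genes, and the calls lost were the interaction of Aldoa (adjusted p = 0.0515) and the label difference of Slc16a1 with LPS (0.0537).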
